A study of Rattus norvegicus with 6 samples.

Results

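The collagen crosslinking enzymes were followed as 8 genes of the 18420 in the deposited table, chosen by symbol: the 5 genes of the lysyl oxidase family (Lox, Loxl1, Loxl2, Loxl3 and Loxl4) and the 3 lysyl hydroxylases (Plod1, Plod2 and Plod3). RNA-seq was run on 6 libraries of wild-type primary articular chondrocytes from male Sprague-Dawley rats. In the TNF-α group (n = 3), cells were kept with TNF-α at 10 ng/mL during 6 h. In the TNF-α+NFL group (n = 3), the same 6 h of TNF-α was followed by 24 h with Nanofat lysate (NFL), the supernatant of rat abdominal fat cells broken by freezing and thawing. The labels give 6 h as the time of the first group and 30 h as that of the second, and the harvest of the first group is not described further in the sources used here. All 6 libraries had been given TNF-α, and by these label times the effects of NFL and of a longer culture cannot be told apart. The cells had been expanded to the third passage before treatment, and cells of the same passage were divided among the groups. The study calls the libraries of a group independent biological replicates, but the labels do not tie them to animals or cultures, so the p-values measure the spread between these libraries.

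Fibrillar collagen is strengthened outside the cell by covalent bonds between lysine residues. Lysyl hydroxylases act first, in the endoplasmic reticulum, where they hydroxylate lysines of the nascent chains. Plod1 acts mainly in the triple helix and Plod2 on the telopeptides at the chain ends, while Plod3 also carries a glycosyltransferase activity. Lysyl oxidases are secreted copper enzymes that then oxidize lysine and hydroxylysine to reactive aldehydes, from which the crosslinks form without further enzymes. Lox and Loxl1 also act on elastin. In cartilage, hydroxylysine-derived crosslinks of type II collagen give the fibril network its tensile strength, and Plod2 is known for its part in fibrosis and as a target of hypoxia-inducible factor 1 (HIF-1).

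Directions are given by the group names of the deposited labels. Fold changes in the supplementary gene table of the study order these groups the other way round, so which group is higher rests on the naming, whereas the sizes of the differences do not. The libraries held from 19344893 to 19725135 estimated counts, and TNF-α replicate 1 lay apart from the others: with all 6 libraries, 54 genes were higher and 27 lower in TNF-α+NFL at an adjusted p under 0.05 (quasi-likelihood test of edgeR, Benjamini-Hochberg over 13250 genes), against 460 and 470 without it (3.43% and 3.51% of the genes tested then). The defining genes of cartilage were low. With TNF-α, Acan stood at 5.11 ± 0.748 TPM (SD, n = 3), Sox9 at 4.42 ± 0.581 TPM (SD, n = 3) and Col2a1 at 7.72 ± 0.551 TPM (SD, n = 3), and Matn1 was below 1 TPM in every library, whereas Prg4, the lubricin gene of superficial cartilage and synovium, had a mean of 1140.5 TPM in that group. By the labels, log2 fold changes were 0.23 for Col2a1 (adjusted p = 0.217 by edgeR, groups apart), 0.090 for Acan and 0.049 for Sox9 (adjusted p = 0.802 and 0.923 by edgeR, groups overlapping). Of the 8 fibroblast genes listed, 6 had means from 136 TPM (Col1a2) to 2453 TPM (Thy1) in the same group, whereas Dpt at 9.32 TPM and Pi16 at 4.44 TPM were as low as the cartilage genes. The defining cartilage genes were thus low or below 1 TPM in cells labelled chondrocytes, and the cells are called by that label only. In bulk RNA, fewer cells of a type and less RNA per cell cannot be told apart.

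The regions before the start of 3 members are shown because these had the smallest p of the 8 and because Plod2 is a known HIF-1 target. They are the 250 bases before the annotated start, 5′ to 3′ on the strand of the gene, from RefSeq (GRCr8). The submitters' processing notes name Rnor_6.0, so these positions belong to another build. Capitals mark the HIF-1 core motif, ACGTG or GCGTG, on either strand. The windows are chr4:117098108-117098357 (+ strand), chr5:163650738-163650987 (- strand) and chr8:101964068-101964317 (+ strand).
Loxl3: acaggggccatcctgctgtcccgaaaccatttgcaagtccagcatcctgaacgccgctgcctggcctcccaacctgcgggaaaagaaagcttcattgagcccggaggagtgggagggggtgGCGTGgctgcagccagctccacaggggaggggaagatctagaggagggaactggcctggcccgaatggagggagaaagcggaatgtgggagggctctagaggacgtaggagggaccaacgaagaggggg
Plod1: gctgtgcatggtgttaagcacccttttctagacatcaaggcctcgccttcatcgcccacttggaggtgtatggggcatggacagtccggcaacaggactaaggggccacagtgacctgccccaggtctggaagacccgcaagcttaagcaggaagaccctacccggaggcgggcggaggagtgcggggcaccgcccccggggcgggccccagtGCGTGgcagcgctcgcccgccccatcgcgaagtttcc
Plod2: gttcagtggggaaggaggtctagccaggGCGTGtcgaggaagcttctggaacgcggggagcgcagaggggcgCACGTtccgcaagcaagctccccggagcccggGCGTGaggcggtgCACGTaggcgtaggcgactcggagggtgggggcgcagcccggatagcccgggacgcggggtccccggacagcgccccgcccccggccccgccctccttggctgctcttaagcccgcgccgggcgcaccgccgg
The window of Plod2 held 4 matches, starting 222, 178, 146 and 133 bases before the start. That of Loxl3 held 1 match, 129 bases before the start, and that of Plod1 held 1, at 37 bases. Of all 33469 windows of the same length, 36.7% held at least 1 match and 2.44% at least 4. Of the 6 members in that table (not Lox or Loxl2), 4 held a match. The Loxl3 window also covers the end of the neighbouring gene Dok1. A match describes the letters only and is no evidence of binding.

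The 8 enzymes were compared first by their levels per transcript length, in TPM. Lox was by far the most abundant, at 2139 ± 193 TPM (SD, n = 3) with TNF-α and 2129.4 ± 76.1 TPM (SD, n = 3) with TNF-α+NFL, a level that 99.8% of all listed genes did not exceed. Loxl1 followed at 764 ± 46.2 and 789.7 ± 35.2 TPM (SD, n = 3 each), and Plod2 at 536.6 ± 14.5 and 574 ± 17.8 TPM (SD, n = 3 each). Plod1, Loxl2, Loxl3 and Plod3 had means over the 6 libraries of 273, 265, 198 and 153 TPM, in that order. Loxl4 was the only scarce member, at 7.17 TPM. Within this order, the libraries of Plod1 and Loxl2 overlapped and Plod1 was the higher in 4 of 6, so this pair was not separated. No other neighbours overlapped. The 5 lysyl oxidases summed to between 3216 and 3685 TPM per library and the 3 lysyl hydroxylases to between 941.5 and 1015.4 TPM.

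**Figure D1:**
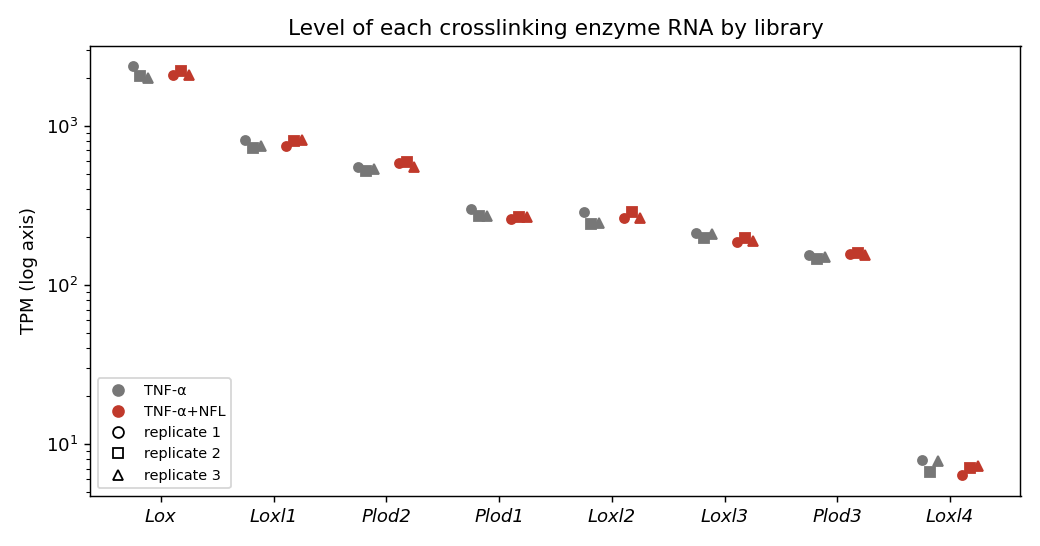
TPM of each enzyme in each library on a log axis, ordered by the mean over the 6 libraries, with grey for TNF-α, red for TNF-α+NFL and a symbol for each replicate number. Lox has a mean of 2134 TPM and Loxl4 of 7.17 TPM, and the groups lie on the same level for each gene at this scale.

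None of the 8 enzymes changed at an adjusted p under 0.05 between the groups. By edgeR, 0 were higher and 0 lower, where 0.408% and 0.204% of all 13250 tested genes were called in those directions (0.611% in either). At an unadjusted p under 0.05, 0 were higher and 2 lower, Loxl3 and Plod1, against a background of 5.66% and 5.45%. Without TNF-α replicate 1 the same pair was lower and 2 members, Loxl2 and Plod2, were higher at an unadjusted p under 0.05. The unadjusted share of all genes in that fit is not given here, so these members cannot be weighed against it. After adjustment, 3.51% of all genes were lower and 3.43% higher in that fit. With all 6 libraries, the DESeq2 Wald test and limma-voom also called 0 members after adjustment, against 1.12% and 0.634% of all genes. Both had the unadjusted p of 2 members under 0.05, against 5.93% and 11% of all genes. By the DESeq2 Wald test, the adjusted p of Loxl3 was 0.0509, just above the threshold, and Loxl4 was given none. All 8 members passed the filter on low counts. Of their log2 fold changes, 5 were above 0 and 3 below, with a median of 0.010 beside -0.0035 for all genes.

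Lox, the founding member of the family, which crosslinks collagen and elastin, stood at normalized counts (CPM, counts scaled to library size with TMM factors) of 5326, 5197 and 5142 in TNF-α replicates 1, 2 and 3 and of 5137, 5418 and 5163 in those of TNF-α+NFL. The groups overlapped throughout. The log2 fold change was 0.0050 with a standard error (SE) of 0.037 and a 95% interval of -0.076 to 0.086 (adjusted p = 0.980 by edgeR), and the same interval in percent was -5.12% to 6.12%. Each library held at least 100588 counts of this gene. In the deposited FPKM and TPM, TNF-α replicate 1 stood higher, at 2361 TPM against 2049 and 2008 TPM in the other replicates of its group. The number of counts behind 1 FPKM of Lox deviated from its mean over the libraries by -6.88% in that library and by 1.396% to 1.503% in the other 5, after the shift common to all genes was removed. Among 3589 genes with at least 20 FPKM in every library, 1.98% had a range of this quantity as wide as that of Lox. The counts of Lox in that library, 101742, lay within the range of the others.

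Loxl1, which is needed for the upkeep of elastic fibres, stood at CPM of 1004.8, 927 and 956 in the TNF-α group and of 925.5, 983 and 1009.6 in the other. The ranges were nearly the same. Its log2 fold change was 0.015 with an SE of 0.044 and a 95% interval of -0.079 to 0.11 (adjusted p = 0.946 by edgeR).

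Loxl2, which crosslinks collagen IV and is raised in fibrosis, stood at CPM of 317, 272 and 280.1 in the TNF-α group and of 291, 313 and 292 in the TNF-α+NFL group. TNF-α replicate 1 was the highest of all 6 libraries and the other TNF-α replicates were the lowest. The log2 fold change was 0.044 with an SE of 0.057 and a 95% interval of -0.080 to 0.17 (adjusted p = 0.847 by edgeR). The coefficient of variation of its CPM in the TNF-α group was 8.28%, the widest of the 8 members. With TNF-α replicate 1 left out, it was 0.11 (adjusted p = 0.0592 from edgeR), whereas it was 0.0039 without TNF-α replicate 2, 0.022 without TNF-α replicate 3 and 0.0085 when TNF-α+NFL replicate 2 was omitted.

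Loxl3, an oxidase required for the palate and for the skeleton in development, had the smallest p of the 8. Its CPM was 304.6, 293 and 315 in the TNF-α group and 269.6, 280.2 and 272 in the TNF-α+NFL group. All TNF-α+NFL libraries lay below all TNF-α libraries, as for 8.17% of the tested genes (8.66% lay the other way). The log2 fold change was -0.15 with an SE of 0.040 and a 95% interval of -0.24 to -0.066 (adjusted p = 0.134 by edgeR). The two-sided exact permutation test gave p = 0.10, the smallest that 3 against 3 allow. Unadjusted, 1.59% of the tested genes had a smaller p. With TNF-α replicate 1 left out, it was -0.15 (adjusted p = 0.0107 from edgeR), the only 1 of 14 alternative fits in which a member passed the threshold, and 3.51% of the genes were called lower in that fit. In RefSeq, the end of Loxl3 overlaps that of Htra2, a mitochondrial protease gene, and the strand setting of the counting is not given in the sources used here. Mean CPM of Htra2 was 62.4 with TNF-α and 56.02 with TNF-α+NFL, and its log2 fold change was -0.16 with an SE of 0.054 (adjusted p = 0.284 from edgeR). Its part in the value of Loxl3 was not tested.

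Loxl4, the least expressed oxidase, stood at CPM of 20.7, 18.5 and 20.9 in the TNF-α group and of 17.5, 19.4 and 19.4 in the TNF-α+NFL group. TNF-α replicate 2 lay below the higher TNF-α+NFL libraries. The log2 fold change was -0.097 with an SE of 0.073 and a 95% interval of -0.25 to 0.060 (adjusted p = 0.688 by edgeR). With only 343 to 414 counts per library, its interval was the widest of the 8.

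Plod1, the helical lysyl hydroxylase, stood at CPM of 436, 410.1 and 414 in the TNF-α group and of 379, 388 and 390.1 in the TNF-α+NFL group. The groups did not overlap. The log2 fold change was -0.12 with an SE of 0.038 and a 95% interval of -0.21 to -0.041 (adjusted p = 0.217 by edgeR). The two-sided exact permutation p was 0.10. Without TNF-α replicate 1, its highest library, the adjusted p from edgeR was 0.0601.

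Plod2, the telopeptide lysyl hydroxylase, stood at CPM of 1021, 999 and 1034 in the TNF-α group and of 1078, 1084 and 1032 in the TNF-α+NFL group. The groups overlapped only through replicate 3 of each. The log2 fold change was 0.065 with an SE of 0.037 and a 95% interval of -0.015 to 0.14 (adjusted p = 0.566 by edgeR). Plod3, the hydroxylase that also glycosylates collagen, was the steadiest, at CPM of 214.0, 209 and 215 in the TNF-α group and of 216, 219.6 and 215 in the TNF-α+NFL group. The fitted log2 fold change was 0.027 with an SE of 0.036 and a 95% interval of -0.052 to 0.11 (adjusted p = 0.856 by edgeR).

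**Figure D2:**
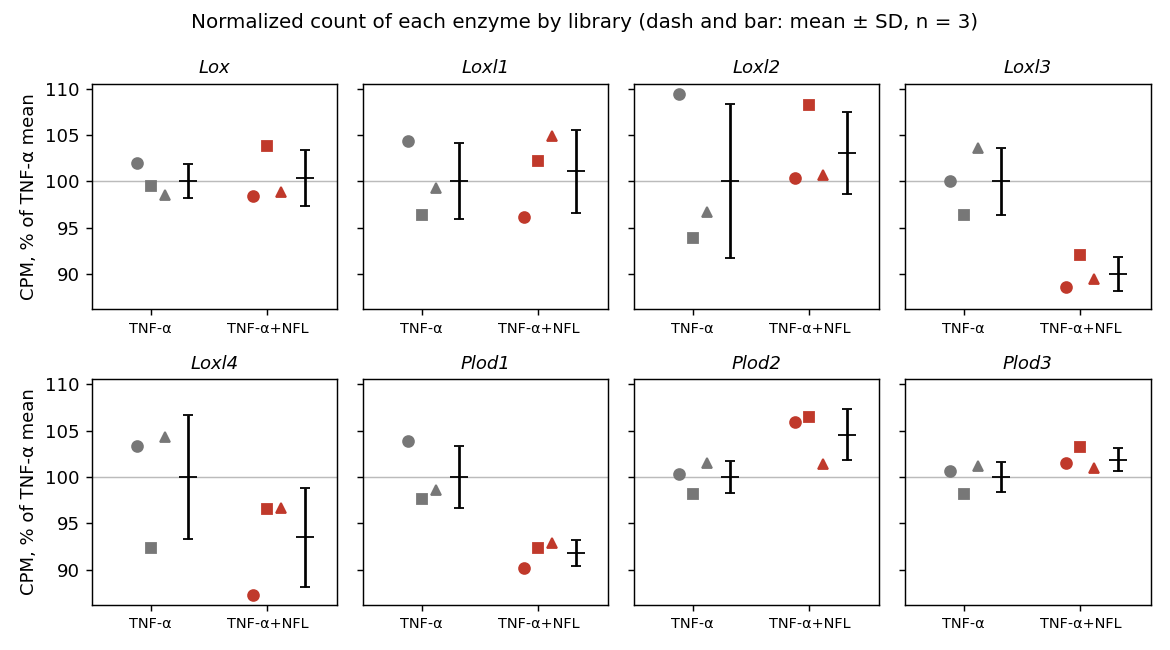
CPM of each enzyme in each library as a percentage of the mean of the TNF-α group, with a symbol for each replicate number (circle 1, square 2, triangle 3), and the mean ± SD beside each group. The axis does not start at 0. The groups lie apart only for Loxl3 and Plod1.

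**Figure D3:**
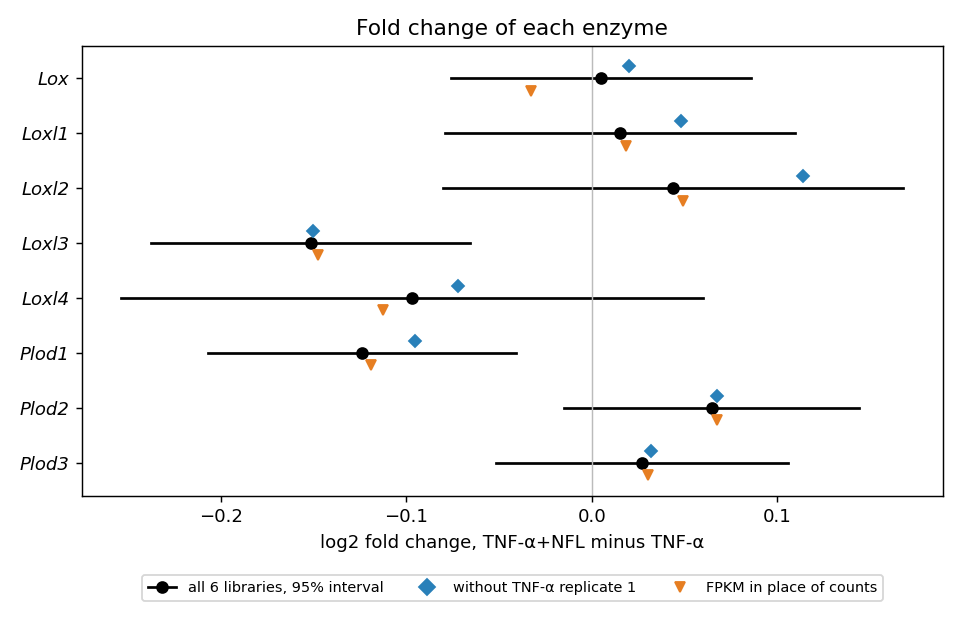
Log2 fold change of each enzyme, TNF-α+NFL minus TNF-α, with its 95% interval from edgeR in black, the value without TNF-α replicate 1 in blue and the value from FPKM in orange. The intervals of Loxl3 (-0.24 to -0.066) and Plod1 (-0.21 to -0.041) lie below 0 before any adjustment for the number of genes, and the FPKM value of Lox lies on the other side of 0.

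The make-up of each family was then compared within libraries, since a share does not depend on the scaling between libraries, although it does depend on the length scaling of each gene. Plod2 took 54.8%, 55.5% and 55.9% of the lysyl hydroxylase TPM in TNF-α replicates 1, 2 and 3 and 58.3%, 57.9% and 56.9% in those of TNF-α+NFL. All shares of the second group were above all of the first, with a difference of 2.28 percentage points. The exact permutation test, two-sided, gave p = 0.10, the smallest it can give with 3 against 3. The share of Plod1 was 29.1% ± 0.657 and then 26.6% ± 0.655 (SD, n = 3 each), again without overlap. The share of Plod3 was 15.5% ± 0.106 and 15.7% ± 0.101 (SD, n = 3 each), also without overlap in TPM but with overlap in counts. These shares add up to 100% and are not independent of each other.

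Among the lysyl oxidases, Lox made up 63.4% ± 0.834 of the TPM in the TNF-α group and 62.9% ± 0.675 in the TNF-α+NFL group (SD, n = 3 each), with overlapping libraries (exact permutation test, two-sided, p = 0.50). The difference, -0.495 percentage points in TPM, was 0.195 in counts. Loxl1 made up 22.7% and 23.3% in the same order. The share of Loxl2 was 7.64% ± 0.196 and 8.02% ± 0.158, and that of Loxl3 was 6.13% ± 0.398 and 5.60% ± 0.0502 (SD, n = 3 each). Neither overlapped between the groups in TPM, and these differences were not tested separately. In counts, an alternative chosen after seeing the data, the share of Loxl2 was 4.55% in TNF-α replicate 1 and at most 4.47% with TNF-α+NFL, so the groups overlapped, whereas the share of Loxl3 stayed apart.

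The RNA of the enzymes was also set against that of their main substrates, the 9 fibrillar collagen chains. Lysyl oxidase TPM and fibrillar collagen TPM were nearly equal in the TNF-α group, with log2 ratios of -0.028, -0.011 and -0.011 in replicates 1, 2 and 3. With TNF-α+NFL they were -0.15, -0.13 and -0.15. The groups did not overlap, and the difference was -0.13 (exact permutation test, two-sided, p = 0.10, the smallest possible). In TNF-α replicate 1 the counts behind 1 FPKM of Lox deviated by -6.88%, so its TPM was high for its counts. The part of this deviation in the ratio of that library was not tested. The difference was -0.11 with raw counts in place of TPM and -0.14 without TNF-α replicate 1. With Col1a1 and Col1a2 alone as the substrate it was -0.095. The summed TPM of the collagens was 3415 ± 297 in the TNF-α group and 3750.0 ± 94.5 in the TNF-α+NFL group, while that of the lysyl oxidases was 3375 ± 269 and 3388 ± 113 (SD, n = 3 each). The log2 ratio of lysyl hydroxylase TPM to fibrillar collagen TPM differed by -0.099, with overlapping libraries (exact permutation test, two-sided, p = 0.20), and by -0.064 with Col1a1 and Col1a2 alone as the substrate. These 4 within-library measures form 1 family, and with 3 against 3 libraries the exact permutation test cannot reach 0.05 for any of them.

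**Figure D4:**
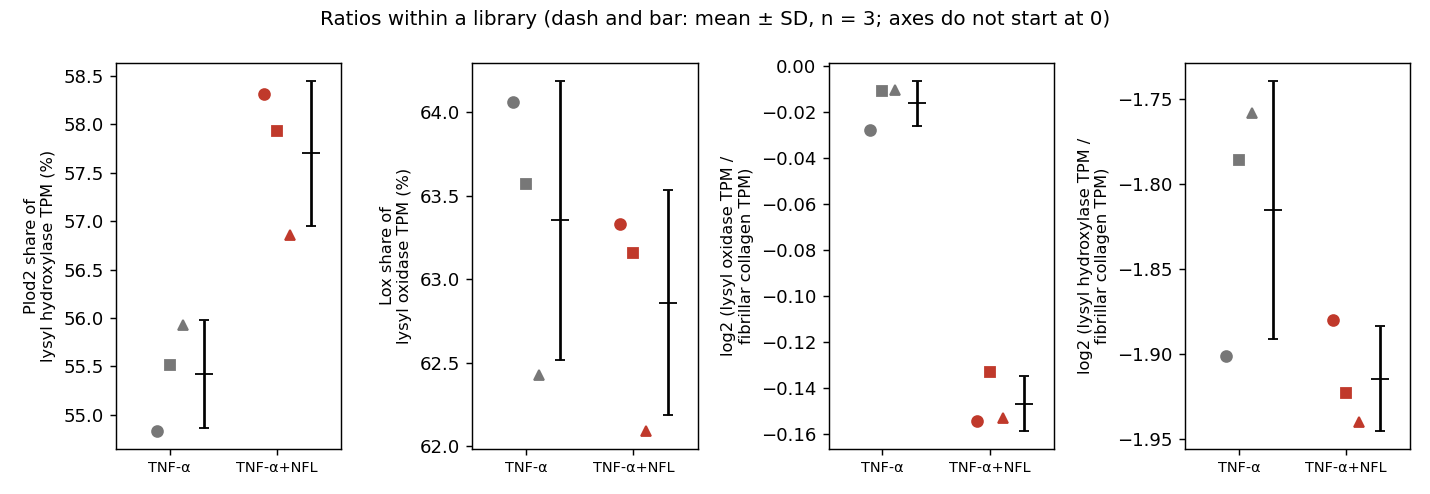
The 4 within-library measures in each library, as percentages or log2 ratios, with the mean ± SD beside each group and circle, square and triangle for replicates 1, 2 and 3. The Plod2 share and the log2 ratio of lysyl oxidase to fibrillar collagen TPM lie apart between the groups, and the other pair overlaps.

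Other genes of collagen maturation gave the setting of the 8 enzymes. Of 26 genes for prolyl hydroxylases, chaperones, glycosyltransferases and procollagen proteinases, 21 were tested, and 0 were higher and 0 lower at an adjusted p under 0.05, against 0.408% and 0.204% of all genes. Unadjusted, 1 was higher and 1 lower, against 5.66% and 5.45% of all genes. When TNF-α replicate 1 was omitted, 1 was higher and 1 lower after adjustment, beside 3.43% and 3.51% of all genes. Their median log2 fold change was -0.0018. The smallest p values were those of Tll1, a procollagen C-proteinase of the tolloid family, with a log2 fold change of 0.13 with an SE of 0.043 (adjusted p = 0.234 from edgeR), and of Pepd, the dipeptidase that recycles proline, with -0.13 with an SE of 0.056 (adjusted p = 0.409 from edgeR). The collagen prolyl hydroxylase subunit P4ha1, the chaperone Serpinh1 and the lysyl hydroxylase partner Fkbp10 had log2 fold changes of 0.018, 0.046 and -0.035.

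Of the 9 fibrillar collagen chains, all tested, 0 passed an adjusted p of 0.05 in either direction, 4 were higher unadjusted (5.66% of all genes) and 8 had a log2 fold change above 0, with a median of 0.087. Col11a1, a chain of the thin cartilage fibril, had the smallest p, with a log2 fold change of 0.22 with an SE of 0.046 (adjusted p = 0.0520 from edgeR). Col5a2, a chain of the fibril core, followed at 0.15 with an SE of 0.035 (adjusted p = 0.0804 from edgeR). With all 6 libraries, 2 chains were higher without a filter on counts (of 84 genes higher in that fit) and 2 by the DESeq2 Wald test (of 95). With a minimum of 10 counts, with DESeq2 size factors and with limma-voom, 1 chain was higher (of 68, 59 and 56 genes). The DESeq2 and limma-voom fits tested the same 13250 genes, and the numbers tested with the other filters are not given here. When TNF-α replicate 1 was omitted, 5 were higher, beside 3.43% of all genes, and the median was 0.17, and the median was 0.16 without TNF-α+NFL replicate 3 and 0.051 without TNF-α replicate 3.

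Of 11 genes for elastic fibres and for partners of the lysyl oxidases, all tested, 0 passed an adjusted p of 0.05 in either direction. Unadjusted, 1 was higher and 1 lower, against the same 5.66% and 5.45% of all genes. The median log2 fold change was -0.019, which became 0.056 without TNF-α replicate 1, when 2 of the 11 were higher beside 3.43% of all genes. Postn, which encodes a matricellular scaffold for lysyl oxidase activation, had a log2 fold change of 0.14 with an SE of 0.044 (adjusted p = 0.223 from edgeR). Emilin1, an elastic fibre protein, had one of -0.12 with an SE of 0.046 (adjusted p = 0.312 from edgeR).

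Of 17 tested targets of HIF-1, which is known to drive Plod2 and Lox, 2 were lower and 0 higher at an adjusted p under 0.05, against 0.204% and 0.408% of all genes. Unadjusted, 8 were lower and 0 higher, against 5.45% and 5.66% of all genes, and the median log2 fold change was -0.10. The glycolytic genes Pgk1 and Eno1 fell, by 0.19 with an SE of 0.039 (adjusted p = 0.0415) and 0.18 with an SE of 0.035 (adjusted p = 0.0357) on the log2 scale by edgeR. In the 6 fits that each left out 1 library, these genes passed in 1 of 6, without TNF-α replicate 1, where 6 of the 17 were lower (3.51% of all genes), and their adjusted p reached 0.290 and 0.292. Plod2 lay on the other side of 0 from the median of these targets, and the difference was not tested.

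**Figure D5:**
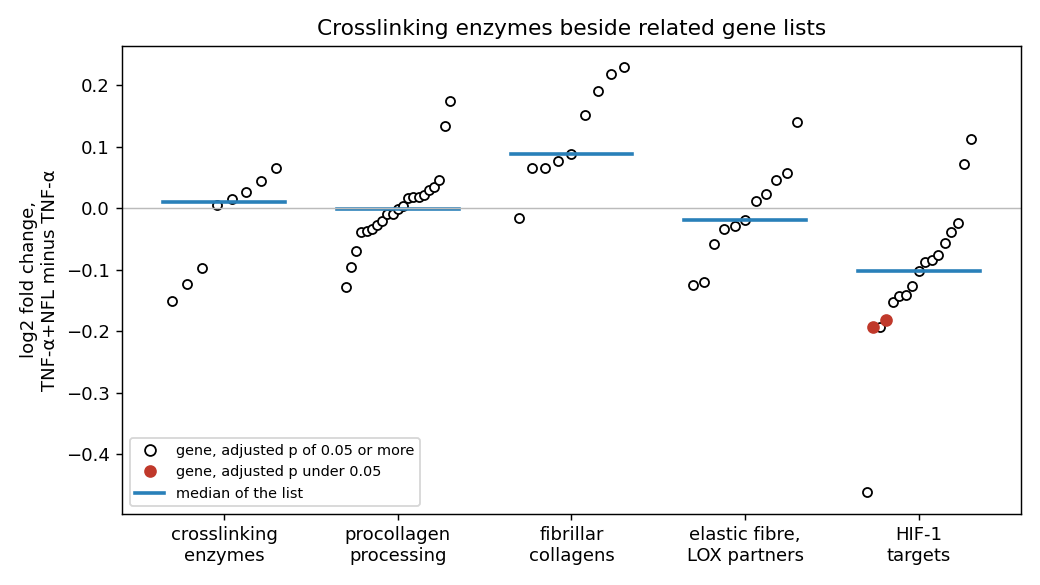
Log2 fold change of every tested gene of the 5 lists, TNF-α+NFL minus TNF-α, in rising order within each list, with the median as a blue line and genes at an adjusted p under 0.05 in red. The 8 enzymes range from -0.15 to 0.065, and the only called genes are 2 HIF-1 targets.

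Genes of other cell types were read beside these results. Summed over the list, adipocyte genes stood at 30.3 to 31.1 TPM in the TNF-α group and 31.9 to 36.05 TPM in the TNF-α+NFL group, with 5 of 6 below 1 TPM in every library (Adipoq and Plin1 among them) and Fabp4 making up nearly all of the sum. Macrophage genes stood at 104.6 to 115.0 TPM and 98.3 to 101.4 TPM, mostly from Cd68 and Cd14, with Ptprc below 1 TPM in every library. Fibroblast genes stood at 4428 to 4886 and 4853 to 5007 TPM, with all 8 at or above 1 TPM. All 5 endothelial genes and all 3 blood genes listed were below 1 TPM in every library. The part of the adipocyte, macrophage and fibroblast genes in the values of the enzymes was not tested.

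The genes whose values followed those of Loxl3 most closely over the 6 libraries, by the root mean square difference of mean-centred log2 CPM, were Unc93b1 (0.0165), Ogfrl1 (0.0189) and Slc46a1 (0.0202). Their log2 fold changes were -0.14, -0.14 and -0.18, and 0 of the 3 passed an adjusted p of 0.05 by edgeR's quasi-likelihood test, of the 13250 genes searched. The genes were picked by likeness over the same libraries, so fold changes near that of Loxl3 follow from the choice.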

How the data were processed

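mRNA of the 6 libraries was selected with oligo(dT) and sequenced as single-end reads. The authors deposited, for each of 18420 genes, estimated counts that are not normalized and need not be whole, FPKM values scaled to transcript length and mapped reads, and TPM values scaled to the same sum per library. The submitters' processing notes list HISAT2 2.0.4, Bowtie2 2.2.5, RSEM 1.2.12 and Rnor_6.0; the annotation and the strand setting are not given in the sources used here. Of the gene identifiers, 17068 matched the RefSeq table of GRCr8, which was used for names, for neighbouring genes and for the regions before the starts.

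After rounding, the estimated counts entered edgeR 4.0.16 under R 4.3.3 (filter by filterByExpr, scaling by TMM, robust quasi-likelihood fit without a block, two-sided, Benjamini-Hochberg over 13250 genes). Standard errors were derived from each log2 fold change with its F value, and 95% intervals from these and the total degrees of freedom, without adjustment for the number of genes. The biological coefficient of variation was 6.39%. DESeq2 1.42.0, limma 3.58.1 (voom on counts, and log2 of FPKM plus 1 or 0.1), other filters and size factors, the replicate block and leaving out each library were alternatives. Single values within libraries were compared by exact permutation tests. The fit was tested on simulated counts with larger changes than those of the members and with no outlying library. That run therefore does not show how well the fit finds changes of the size seen here.

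The members, the gene lists, the tests and the alternatives were chosen with earlier results of these data known. Genes outside the members are named where they passed an adjusted p of 0.05 within a list, had one of the 2 smallest p values of a list, or were among the 3 nearest to the member with the smallest p. Htra2 and Dok1 were named after the values were seen, as were P4ha1, Serpinh1, Fkbp10 and the marker genes given as examples. An NC group was not analysed here.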

Additional observations from a re-analysis of the deposited data

How the results depend on the processing

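Of the 14 alternatives for each enzyme, the direction held in all 14 for Loxl2, Loxl3, Loxl4, Plod1, Plod2 and Plod3. That of Lox turned to -0.033 with limma on log2(FPKM + 1) and on log2(FPKM + 0.1), where the length scaling of TNF-α replicate 1 enters, and to -0.0040 without TNF-α replicate 3 or -0.019 if TNF-α+NFL replicate 2 was omitted. Its share of lysyl oxidase TPM, lower by 0.495 percentage points, turned to 0.195 with raw counts in place of TPM. Loxl1 held its direction in 12 of 14. With 1 library left out, log2 fold changes ran from -0.019 to 0.021 for Lox, from -0.011 to 0.052 for Loxl1, from 0.0039 to 0.11 for Loxl2, from -0.17 to -0.12 for Loxl3, from -0.15 to -0.048 for Loxl4 and from 0.017 to 0.038 for Plod3. The log2 ratio of lysyl hydroxylases to fibrillar collagens ran from -0.14 to -0.070. From 0 to 1 enzymes were lower, the 1 being Loxl3 without TNF-α replicate 1 (-0.15). Its adjusted p ran from 0.0107 to 0.527 over the 14 alternatives, and that of Plod1 from 0.0601 to 0.630. No other alternative brought an enzyme past 0.05.

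Over all genes, against 54 higher and 27 lower, the numbers were 84 and 48 without a filter on counts, 95 and 53 with the DESeq2 Wald test, 3 and 3 with limma on log2(FPKM + 1) and 7 and 6 on log2(FPKM + 0.1). With 1 library left out they ran from 5 to 460 higher and from 0 to 470 lower. With a replicate block they were 25 and 9, and Pgk1 and Eno1 were no longer past 0.05, nor with either FPKM fit. Whether the numbers pair the samples is not known from the labels. The correlations of the deviations of same-numbered libraries were -0.0114, -0.0241 and 0.0800, which with 3 libraries per group cannot exclude a pairing. Under the block Loxl3 was at -0.15, Plod1 at -0.12 and the Plod2 share at 2.28 percentage points. DESeq2 gave no adjusted p for Loxl4. The cause of these shifts was not tested. Loxl4, with the fewest counts, had the widest interval.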
